A study of Ovis aries with 8 samples.

Results

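The estrogen receptors ESR1 (estrogen receptor alpha) and ESR2 (estrogen receptor beta) were followed in the pituitary of the fetal sheep after a brief period of hypoxia. Every probe whose gene name or description in the scanner output named either receptor was taken, without regard to its values. This gave 2 genes and 4 probes of the 15008 gene probes on the array. ESR1 had 2 probes and ESR2 had 2 probes, and each probe had 1 spot on each array.

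Total RNA of whole pituitaries from 8 late-gestation sheep fetuses was labelled with Cy3 and hybridized to 1-colour Agilent 15k ovine arrays, with 1 fetus per array. The fetuses were twins carried by chronically catheterized ewes, 1 fetus from each pregnancy was used, and none was anesthetized during the experiment. In the hypoxia group (n = 4), nitrogen was run into the trachea of the ewe for 30 min, and fetus and ewe were killed 60 min after the onset. The normoxia group (n = 4) was handled in the same way with the nitrogen turned off.

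Hypoxic fetuses were 129 to 132 days and normoxic fetuses 123 to 129 days of gestation, and each group held 3 males and 1 female. The mean age was 130.75 ± 1.26 days in hypoxia against 126.5 ± 2.65 days in normoxia (SD, n = 4 each, exact two-sided permutation p = 0.0571), so age and group were largely confounded. No genotype, breed or hormone treatment was labelled. Anterior and posterior lobes were not separated, so each value is an average over all cells of the gland, and fewer cells of a type and less RNA per cell cannot be told apart. The arrays came from 2 slides, each with 2 hypoxia and 2 normoxia arrays. Hypoxia arrays were darker before normalization, with a median spot signal of 227 to 291 against 305 to 377 in normoxia, and the share of spots well above background was 79.41 to 83.34% against 83.05 to 85.49%.

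The labels call the tissue pituitary, while their extraction text names hypothalamus. The hormone genes of the anterior and intermediate lobes were among the brightest. On the normalized log2 intensity scale growth hormone (GH) ran from 18.89 to 19.07 over the 8 arrays and prolactin (PRL) from 18.86 to 19.02. In hypoxia, POMC (the precursor of ACTH) averaged 18.85, CGA (the shared alpha subunit of the glycoprotein hormones) 17.74, LHB 15.78 and FSHB 14.99. GH and PRL each had 1 array with a saturated spot. No probe was paired with TSHB, the thyrotropin beta subunit.

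ESR1 and ESR2 are nuclear receptors that bind estradiol, form dimers and act at estrogen response elements or through other transcription factors to change transcription. In the pituitary, estrogen acting mainly through ESR1 is known to feed back on gonadotropes, where it alters their response to GnRH, and to stimulate prolactin synthesis and growth of lactotropes. ESR2 is closely related to ESR1 in its DNA-binding domain, and its mRNA is usually scarcer in the adult gland.

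The 4 probes were 60-mers, and their sequences are shown because the receptor readings depend on which piece of which transcript each probe sees. The brighter ESR1 probe (A_70_P017071) was annotated to an ovine estrogen receptor alpha mRNA with a partial coding sequence and began at position 5590 of its design target. The dimmer one (A_70_P042936) carried no gene symbol: it was designed on an ovine transcript assembly, began at position 1410 of it, and was tied to ESR1 only through a description that notes partial similarity to the bovine estrogen receptor alpha. Both ESR2 probes were annotated to the ovine estrogen receptor beta mRNA and began at positions 1168 (A_70_P051131) and 1148 (A_70_P051132). The positions count along each design's own target and cannot be compared between ESR1 probes, and the scanner output gives no place in the genome for any of them.

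Both ESR2 probes follow whole, 5′ to 3′, with the 40 bases that they share in capitals. Of each ESR1 probe, the last 30 bases follow, 5′ to 3′, with the polyadenylation hexamer AATAAA in capitals where it occurs.

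A_70_P017071 (ESR1): ttctctacctatttgatgttcaAATAAAga

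A_70_P042936 (named through similarity to ESR1): aatgttctttttctttgaccacacattaac

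A_70_P051131 (ESR2): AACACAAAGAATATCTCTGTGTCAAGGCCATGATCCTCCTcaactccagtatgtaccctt

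A_70_P051132 (ESR2): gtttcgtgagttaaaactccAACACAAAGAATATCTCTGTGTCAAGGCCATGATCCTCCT

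The hexamer AATAAA, which is found near the end of many mRNAs, began at base 53 of the brighter ESR1 probe and left 2 bases behind it. Among all 15008 gene probes, 5.63% held it on the printed strand and 3.7% on the other strand, and 3.86% held it within the last 30 bases. The other 3 receptor probes did not hold it on either strand. The dimmer ESR1 probe had a stop codon (TAA, TAG or TGA) in each of the 3 forward reading frames, as did 17.6% of all gene probes. The brighter ESR1 probe had 1 forward frame without a stop codon, A_70_P051131 had 2 and A_70_P051132 had 1. G and C made up 35.0% of the brighter and 36.7% of the dimmer ESR1 probe, 43.3% of A_70_P051131 and 41.7% of A_70_P051132.

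The ESR1 probes shared no run longer than 7 bases with each other, and neither shared 20 bases with any other probe of the array on either strand. The ESR2 probes shared 20 bases or more only with each other, so they are nearly the same measurement made at 2 spots and not independent readings of the gene.

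The brighter ESR1 probe did not differ detectably between the groups. Its normalized log2 intensity was 12.64, 12.24, 12.22 and 12.56 in hypoxia replicates 1 to 4 and 12.30, 12.07, 12.19 and 12.37 in normoxia replicates 1 to 4. The highest arrays were hypoxia replicates 1 and 4 and the lowest was normoxia replicate 2, with the groups overlapping between 12.22 and 12.37. Of the 13036 probes retained for testing, 88.1% were dimmer, which describes the spot and not the abundance of the transcript.

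The mean over 4 arrays was 12.42 ± 0.215 (SD) in hypoxia and 12.23 ± 0.134 in normoxia. The difference was 0.18 on the log2 scale (SE 0.119, 95% interval -0.08 to 0.45), and limma gave an unadjusted p of 0.157 and a Benjamini-Hochberg adjusted p of 0.461. The exact two-sided permutation test of the 8 arrays gave p = 0.229, where the smallest value that 4 against 4 arrays allow is 0.0286. A change of this probe was therefore not detected, and the interval leaves room for a fall of up to 0.08 and a rise of up to 0.45.

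The dimmer ESR1 probe was higher in hypoxia. Its normalized log2 intensity was 10.89, 11.22, 11.48 and 11.57 in hypoxia replicates 1 to 4 and 11.17, 10.63, 10.54 and 10.15 in normoxia replicates 1 to 4. All arrays of the hypoxia group except replicate 1 lay above all normoxia arrays, and the overlap came from normoxia replicate 1 at 11.17 and hypoxia replicate 1 at 10.89. Among retained probes 77.1% were dimmer.

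The hypoxia mean was 11.29 ± 0.304 and the normoxia mean 10.62 ± 0.424 (SD, n = 4 each). Hypoxia was thus 0.67 higher on the log2 scale, or 1.59-fold (SE 0.218, 95% interval 0.18 to 1.16). The unadjusted limma p was 0.0129, which passes the study's threshold of 0.05, and the Benjamini-Hochberg adjusted p was 0.157, which does not. The exact permutation test of this probe alone gave p = 0.0571. Before normalization the spot intensity was 1802 to 2755 in hypoxia and 1310 to 3146 in normoxia, and the highest raw value belonged to normoxia replicate 1, the array with the highest median spot signal.

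Of the 3 receptor probes that could be tested, 1 was called higher and none lower at an unadjusted limma p of 0.05 or below. Over all 13036 probes tested, 973 (7.46%) were called higher and 1430 (11.0%) lower, and 3 had an adjusted p under 0.05. With arrays scaled to a common 75th percentile, 979 were called higher and 976 lower, so the excess of lower calls depended on the scaling. None of the 3 receptor probes separated the groups without overlap. Over all probes, every hypoxia array lay above every normoxia array for 4.23% and below for 5.91%.

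**Figure D1:**
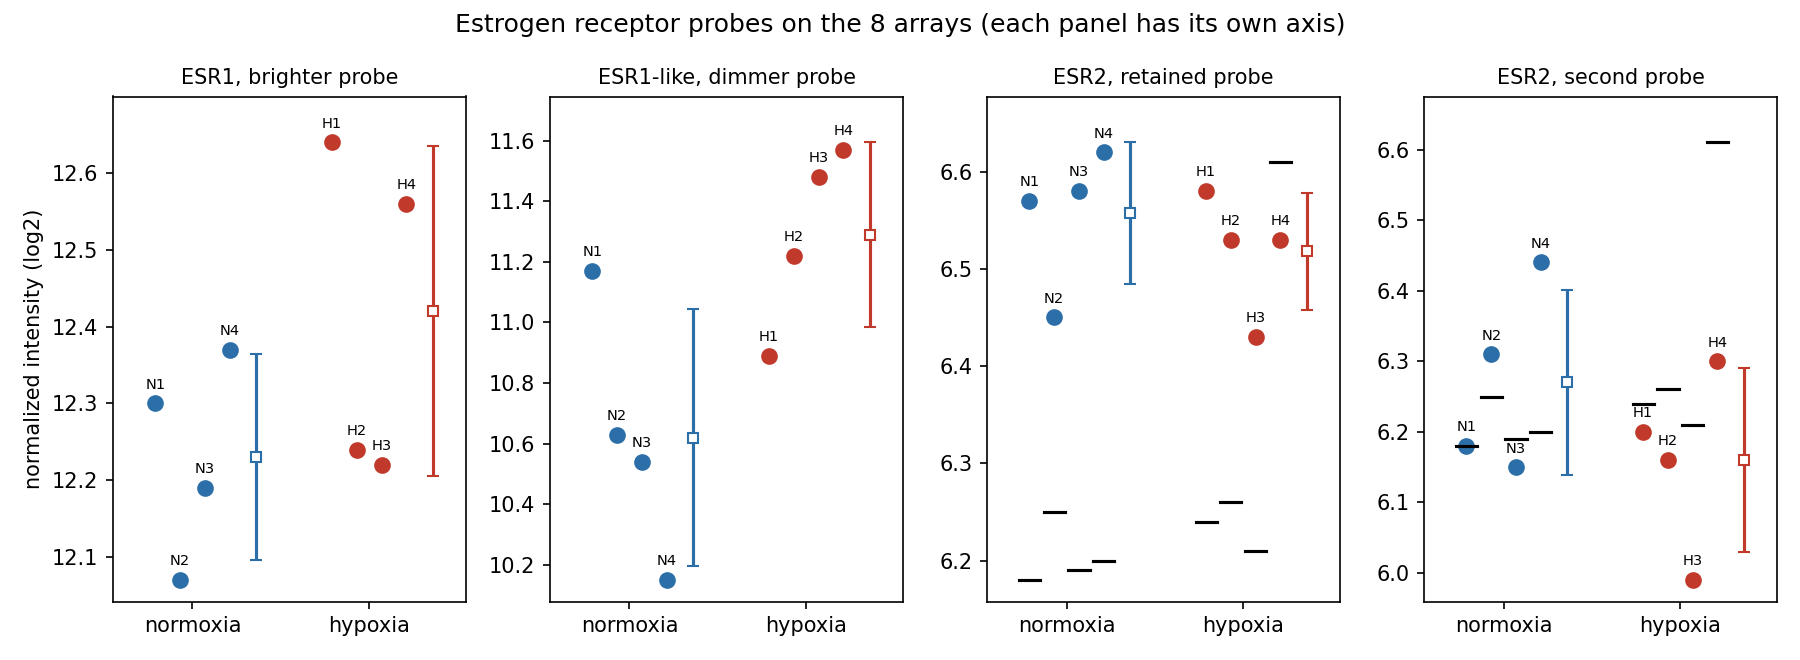
Normalized log2 intensity of the 4 receptor probes on the 8 arrays (N1 to N4 normoxia in blue, H1 to H4 hypoxia in red), with the group mean ± SD (n = 4) as open squares and, for ESR2, each array's limit from the negative controls as a black bar. The dimmer ESR1 probe runs from 10.15 to 11.17 in normoxia and from 10.89 to 11.57 in hypoxia, and the groups overlap in all 4 panels.

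The ESR1 probes did not follow each other across the arrays. Hypoxia replicate 1 was the highest of all arrays on the brighter probe and the lowest of its group on the dimmer one. Normoxia replicate 4 was the lowest of all arrays on the dimmer probe and the highest of its group on the brighter one. Over the 8 arrays Pearson's r between the ESR1 probes was 0.22 and Spearman's rho 0.21, and after subtracting the group means r was -0.25. These are descriptions of 8 arrays that share the 2 groups and the 2 slides. The ESR2 probes, which overlap in sequence, had r = 0.50.

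Subtracting the dimmer from the brighter probe within each array removes what both share and keeps the separate variation of each. Little was shared here (r = 0.22), and in both groups the gap had a larger SD than either probe alone. The gap was 1.74, 1.03, 0.74 and 0.99 on the log2 scale in hypoxia replicates 1 to 4 and 1.13, 1.43, 1.65 and 2.23 in normoxia replicates 1 to 4. The gap was narrowest in hypoxia replicate 3 and widest in normoxia replicate 4, and hypoxia replicate 1 lay within the range of the normoxia group. Its mean over 4 arrays was 1.12 ± 0.431 (SD) in hypoxia and 1.61 ± 0.464 in normoxia. The change of -0.49 gave an exact two-sided permutation p of 0.171, so an unequal response of the probes was not detected with 4 arrays per group. The call on the dimmer probe and the missing call on the brighter one are therefore not shown to differ.

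**Figure D2:**
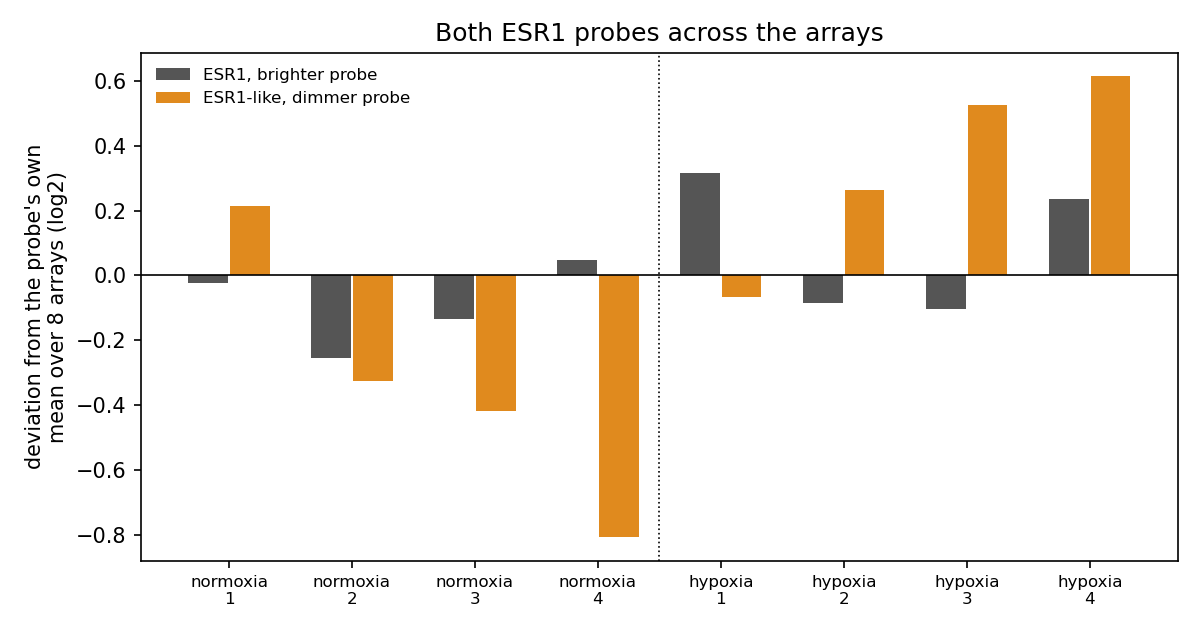
Deviation of each ESR1 probe from its own mean over the 8 arrays on the log2 scale (brighter probe in grey, dimmer probe in orange), normoxia replicates on the left of the dotted line and hypoxia replicates on the right. The bars point the same way on normoxia replicates 2 and 3 and hypoxia replicate 4 and in opposite ways on the other arrays, with r = 0.22 over the 8 arrays.

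Where both ESR1 probes were averaged on each array in place of taking the brighter one, ESR1 was 0.43 higher in hypoxia on the log2 scale, with an unadjusted limma p of 0.0062 and an adjusted p of 0.121. Whether ESR1 is called higher thus depended on whether the probe named through similarity to the bovine mRNA was counted as ESR1.

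The difference of the dimmer probe was uneven between slides. It was 0.29 on slide 1, which held both of the arrays that overlap, and 1.05 on slide 2, each from 2 arrays per group and with no test. The interaction of hypoxia with slide was 0.77 on the log2 scale (limma unadjusted p = 0.0766, adjusted p = 0.692). The brighter probe differed by 0.24 on slide 1 and by 0.12 on slide 2. The interaction of hypoxia with sex was 0.42 for the dimmer probe (limma adjusted p = 0.94) and -0.35 for the brighter one (adjusted p = 0.882), with 1 female per group.

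Gestational age differed between the groups in the same direction as the dimmer probe. The youngest fetus, normoxia replicate 4 at 123 days, had the lowest value, 10.15, and the oldest, hypoxia replicate 4 at 132 days, had the highest, 11.57. The other arrays followed no such order: within normoxia the probe read 11.17 at 126, 10.63 at 128 and 10.54 at 129 days, and within hypoxia 11.48 at 129 and 10.89 and 11.22 at 131 days. At 129 days, the only age found in both groups, hypoxia replicate 3 stood at 11.48 and normoxia replicate 3 at 10.54. Hypoxia replicate 3 was a male on slide 1 and normoxia replicate 3 a female on slide 2. This pair of single fetuses thus cannot tell hypoxia from sex or slide. With age as a covariate the difference was 0.49 (limma adjusted p = 0.837), and with the median spot signal of the array as a covariate it was 0.69 (adjusted p = 0.953). The unadjusted p no longer passed the threshold in either fit. The brighter probe stood at 0.24 with age and 0.26 with array brightness, and was called with neither. The part of age or array brightness in the difference of the dimmer probe was not tested beyond these fits.

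**Figure D3:**
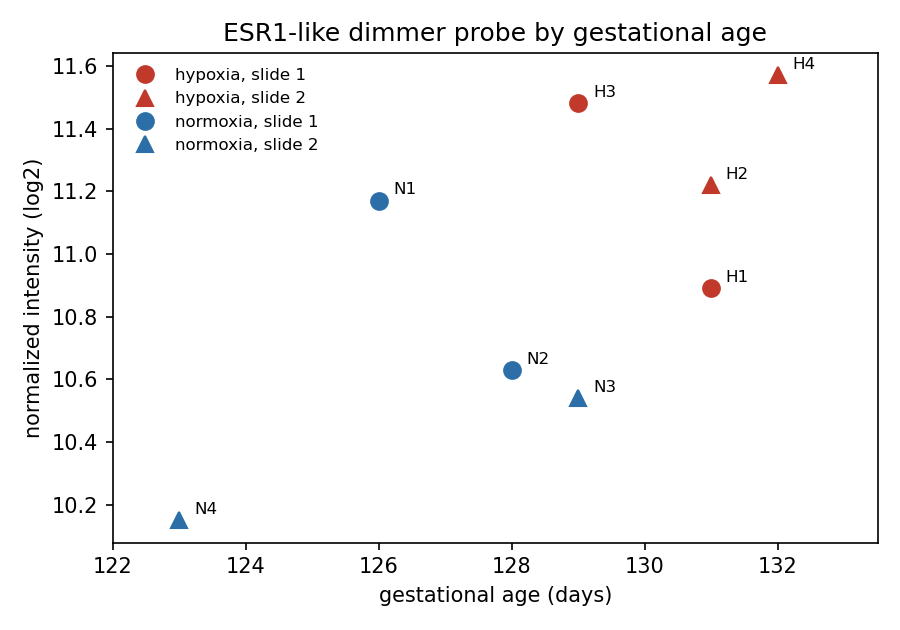
Normalized log2 intensity of the dimmer ESR1 probe against gestational age in days, with normoxia in blue, hypoxia in red, slide 1 as circles and slide 2 as triangles. Hypoxic fetuses lie at 129 to 132 days and normoxic fetuses at 123 to 129 days. The values at 129 days are 11.48 in hypoxia (a male on slide 1) and 10.54 in normoxia (a female on slide 2).

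ESR2 was measured near the limit of the array. The retained probe A_70_P051131 had a normalized log2 intensity of 6.58, 6.53, 6.43 and 6.53 in hypoxia replicates 1 to 4 and 6.57, 6.45, 6.58 and 6.62 in normoxia replicates 1 to 4. All 8 values lay within 0.2 of each other and the groups overlapped almost wholly. Its spots read 79.35 to 97.94 in hypoxia and 83.58 to 105.6 in normoxia, over a local background of 46 to 53. The scanner software marked the spot well above background on 8 of 8 arrays, and only 11.5% of retained probes were dimmer.

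Retention required that a probe exceed the 95th percentile of its array's negative controls by a factor of 1.1 on 3 arrays or more. This limit was 6.18 to 6.26 on 7 arrays and 6.61 on hypoxia replicate 4, where A_70_P051131 fell below it. The hypoxia mean of ESR2 was 6.52 ± 0.060 and the normoxia mean 6.56 ± 0.073 (SD, n = 4 each). The difference was -0.04 (SE 0.0721, 95% interval -0.20 to 0.12), with a limma p of 0.602, an adjusted p of 0.811 and an exact permutation p of 0.4. No difference of ESR2 was detected at this signal, and the sign turned to 0.10 when arrays were scaled to a common 75th percentile. The offset added to weak signals narrows such differences: without it the difference was -0.09.

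The second ESR2 probe, A_70_P051132, was not retained. Its log2 intensity was 6.20, 6.16, 5.99 and 6.30 in hypoxia replicates 1 to 4 and 6.18, 6.31, 6.15 and 6.44 in normoxia replicates 1 to 4. It reached the limit on normoxia replicates 2 and 4 only and was well above background on normoxia replicates 1 and 4 only. In the hypoxia group it was not well above background on any array. The groups overlapped, and their means differed by -0.11 (exact permutation p = 0.343), or in a limma fit without the filter with a 95% interval of -0.32 to 0.10 and p = 0.266. Both ESR2 probes thus gave no detectable difference, but the 40 shared bases make this 1 observation.

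**Figure D4:**
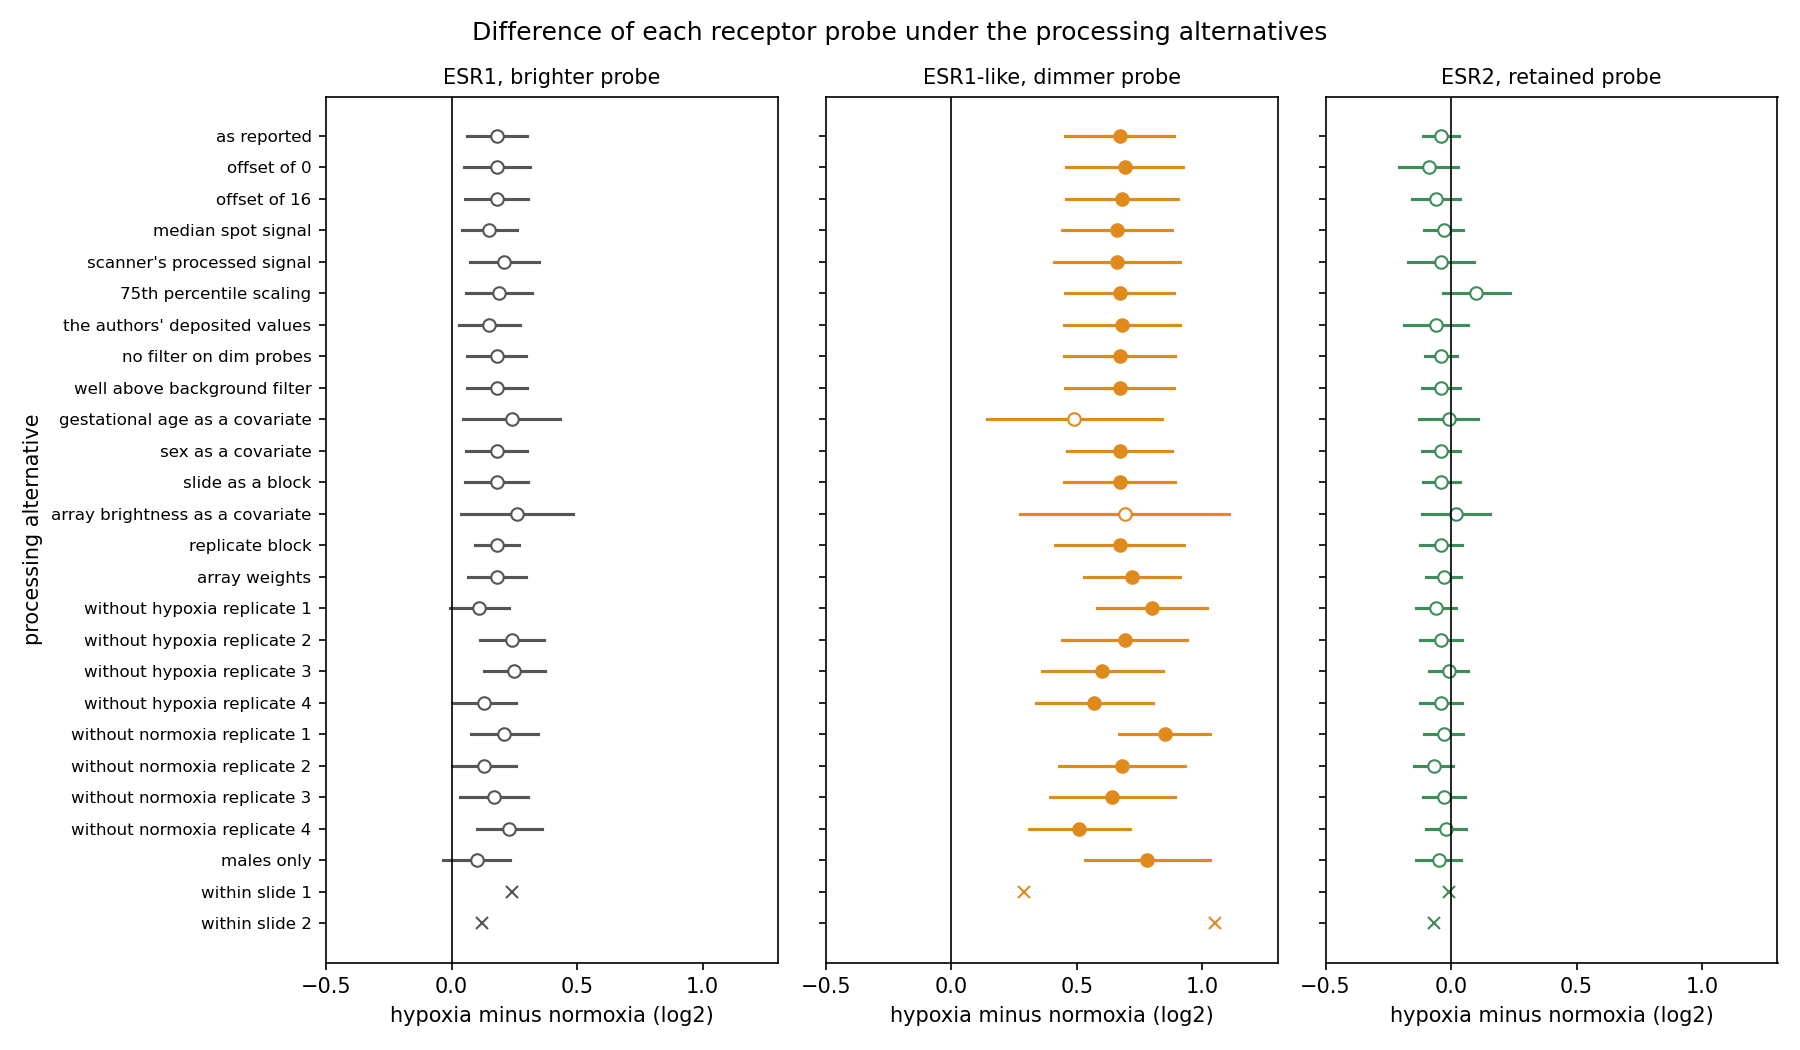
Hypoxia minus normoxia on the log2 scale for the 3 tested receptor probes under each processing alternative, as the estimate ± SE. Filled circles have an unadjusted limma p of 0.05 or below, open circles do not, and crosses are within-slide differences with no test; the dimmer ESR1 probe is filled except with age or array brightness as a covariate.

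The genes whose log2 intensity followed each receptor probe most closely were taken from the 870 other named genes with a retained probe, by Pearson's r over the 8 arrays. These correlations describe 8 arrays of 2 groups and carry no test. The brighter ESR1 probe was most like SS18L2 (r = 0.81), LHCGR, the receptor of luteinizing hormone (0.78), SMAD3, which carries signals of activin and TGF-beta to the nucleus (0.77), the copper transporter ATP7B (0.74) and LOC100037663 (0.73). The dimmer ESR1 probe was most like PRLH, which encodes prolactin-releasing peptide (r = 0.97), OXT, which encodes oxytocin (0.97), ZFP36, whose protein promotes decay of AU-rich mRNAs (0.95), the water channel AQP8 (0.95) and MYL11, a fast skeletal muscle myosin light chain (0.95).

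No gene was among the 5 closest of both ESR1 probes. After subtracting the group means, r was 0.93 to 0.96 for the 5 genes of the dimmer probe and 0.63 to 0.75 for those of the brighter one. For the 5 genes of the retained ESR2 probe it was 0.75 to 0.96. The retained ESR2 probe was most like FCGR1A, an immunoglobulin receptor of myeloid cells (r = 0.95), RAB28 (0.88), RTP4 (0.83), APOBEC3F (0.80) and TNFRSF11B (0.77).

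OXT, which was close to the dimmer ESR1 probe, is listed with the genes of posterior lobe and hypothalamic neurons. It was 0.39 higher in hypoxia on the log2 scale (SE 0.128, limma adjusted p = 0.156, exact permutation p = 0.0571), with groups that overlapped between 10.63 and 10.74. The second OXT probe differed by 0.24 (limma adjusted p = 0.328). Of 22 genes listed for posterior lobe and hypothalamic neurons, 10 had a retained probe, 2 were called higher and 1 lower, beside 7.46% and 11.0% of all probes, and the median difference was -0.26. Those called were OXT, TAC1 (the precursor of substance P, a difference of 1.39, limma adjusted p = 0.251) and PMCH (the precursor of melanin-concentrating hormone, a difference of -0.35, adjusted p = 0.135). The summed intensity of the list ran from 36360 to 73850 in hypoxia and from 42170 to 49870 in normoxia. Most of this sum was VIM (vimentin, 14.98 to 15.99 on the log2 scale in hypoxia and 15.18 to 15.43 in normoxia), which many cell types express, so the range does not measure posterior-lobe tissue. The part of posterior-lobe or hypothalamic tissue in the reading of the dimmer probe was not tested.

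Other nuclear receptors gave few measurements. Of 48 listed, a list that includes ESR1 and ESR2, 8 had a retained probe, and the median of these was 0.07 on the log2 scale beside -0.00 over all retained probes. THRB, the beta receptor of thyroid hormone, was the only member called where ESR1 is taken by its brighter probe. It read 9.01 to 9.11 in hypoxia against 8.73 to 8.84 in normoxia with no overlap, a difference of 0.25 (SE 0.0673, limma adjusted p = 0.115). The exact permutation p was 0.0286, the smallest that 4 against 4 arrays allow. Over all probes 7.46% were called higher and 4.23% lay wholly above. The progesterone receptor PGR, a well-known target of ESR1, differed by -0.35 (limma adjusted p = 0.425), the glucocorticoid receptor NR3C1 by 0.07, NR5A1, a factor of gonadotrope development, by 0.06 and PPARG by 0.20, none of which passed the test.

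Of 46 listed coregulators and partners of the estrogen receptors, 7 had a retained probe and the median difference was 0.07. None was called in either direction, beside 7.46% called higher and 11.0% called lower over all probes. The enzymes and carriers of estrogen synthesis and metabolism were poorly covered: 6 of 41 were paired with a probe and 3 were retained, with none called and a median of -0.02. STAR, CYP11A1 and CYP19, the aromatase that makes estrogens, were paired with a probe and fell below the limit. CYP17A1, which makes the androgen precursors, differed by 0.18 (limma adjusted p = 0.323).

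Of 50 genes listed as estrogen-responsive, 26 had a retained probe, 5 were called higher and none lower (7.46% and 11.0% over all probes), and the median difference was 0.24, with 19 positive and 7 negative values beside a median of -0.00 over all probes. Such genes answer to many signals besides estrogen, and the list was assembled with earlier results of these data known, so that its count is not independent evidence of a direction. The genes called were OXT (0.39), the oncogene MYC (0.40), the growth factor carrier IGFBP2 (0.28), the oxytocin receptor OXTR (0.43) and FSHB, the beta subunit of follicle-stimulating hormone (0.46). The adjusted p-values of these 5 in limma ran from 0.156 for OXT to 0.241 for FSHB, their exact permutation p-values from 0.0571 to 0.143, and the groups overlapped for each of the 5.

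The second probe of MYC was called as well (0.47, limma adjusted p = 0.102), while that of IGFBP2 was not (0.19, adjusted p = 0.368). EGR1, an early response gene of the same list, was also higher in hypoxia on both probes. Its brighter probe was not called (0.34) and its dimmer probe was (0.88, limma adjusted p = 0.0796). EGR1 was named here after its values were seen. This dimmer EGR1 probe had a mean log2 intensity of only 6.91. OXTR lay near the limits from the negative controls (6.18 to 6.61), at 6.27 to 6.64 in normoxia and 6.48 to 7.34 in hypoxia. The second probe of OXTR differed by 0.17 (limma adjusted p = 0.535), and FSHB in normoxia ranged from 14.22 to 15.17. The estrogen targets PRL (-0.03) and PGR (-0.35) did not pass the test, PRL being close to the top of the scale with a saturated spot on 1 array.

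Lists of the hormone-producing cell types of the anterior and intermediate lobes held 1 called gene, beside 7.46% called higher and 11.0% called lower over all probes. These lists are short, and their count of calls was not tested against those shares. Of 18 gonadotrope genes 12 were retained, of which only FSHB was called, with 7 positive and 5 negative values and a median difference of 0.04. LHB, the beta subunit of luteinizing hormone, differed by 0.26 (limma adjusted p = 0.51) and CGA by 0.07. Of 10 genes of lactotropes and somatotropes 8 were retained, none was called, and the median was -0.07. Of 9 genes of corticotropes and melanotropes 4 were retained and none called, with a median of 0.05 and POMC at 0.02. Of 6 thyrotrope genes 2 were retained and none called, with a median of 0.03.

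Among 24 genes of blood, endothelium and muscle, 7 were retained and 2 called lower, the lysozyme gene LYZ (-1.01, limma adjusted p = 0.0866) and the cathepsin gene CTSS (-0.79, adjusted p = 0.132), both expressed in myeloid cells and both without overlap between groups. Over all probes 11.0% were called lower and 5.91% lay wholly below. The list's summed intensity was 16020 to 36220 in hypoxia and 8478 to 27630 in normoxia, most of it from the hemoglobin gene HBB, and the median difference was 0.03. The muscle gene MYL11 was listed under its older symbol MYLPF, which was paired with no probe, so it is missing from these counts and sums. Its own probe read 13.09 to 13.54 on the log2 scale in hypoxia. That probe differed by 0.37 between the groups (limma unadjusted p = 0.0973). Of 25 pituitary transcription factors 7 were retained, with a median of 0.06. ISL1 was called higher (0.27, limma adjusted p = 0.255) and NEUROD1 lower (-1.26, adjusted p = 0.0689), beside 7.46% and 11.0% of all probes.

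**Figure D5:**
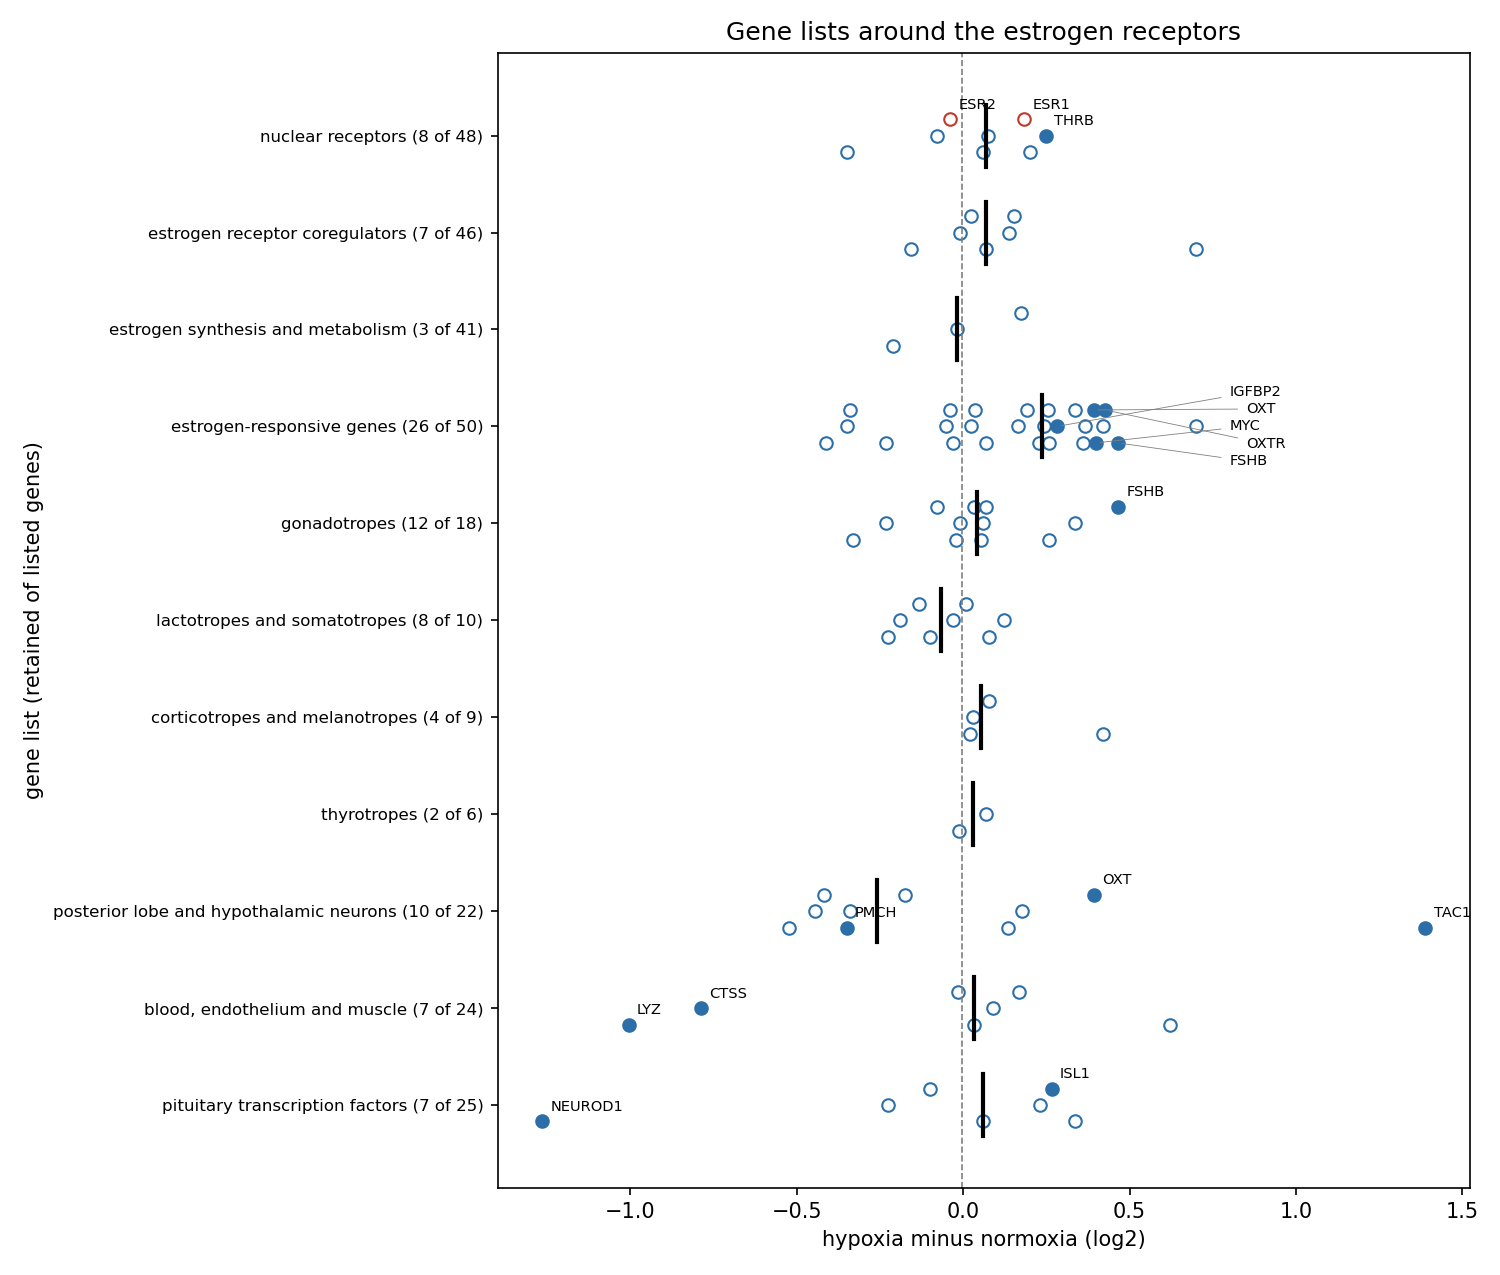
Hypoxia minus normoxia on the log2 scale for each retained gene of the 11 lists (1 point per gene, the receptors in red, filled where the unadjusted limma p is 0.05 or below), with the median of each list as a black bar and the median of all 13036 retained probes as a dashed line. ESR1, shown by its brighter probe, stands at 0.18 and ESR2 at -0.04, both open, and 5 of the 26 estrogen-responsive genes are filled, all to the right.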

How the data were processed

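The deposited scanner files give spot intensity and local background in arbitrary units, with flags (other), made by the authors with Agilent Feature Extraction 10.1.1.1 (submitters' processing notes). The deposited log2 table holds the authors' background-corrected, quantile-normalized values of 12956 probes (limma, version not given in the sources used here) and was used as an alternative. From the mean spot intensity, background was corrected by normexp with an offset of 50, arrays were quantile normalized, and probes at least 1.1 times the 95th percentile of 77 negative control spots on 3 or more arrays were kept (13036 of 15008). Hypoxia and normoxia were compared with limma 3.58.1 in R 4.3.3 over all kept probes, with no covariate, following the study's methods. The difference between ESR1 probes was tested by exact permutation. A gene with several probes takes the brightest. Of 15008 probes, 1593 were named through RefSeq annotation (713 by accession, 519 by symbol, 125 by gene ID, 26 by synonym) or by the array design alone (210), giving 986 genes. Up to 5 called genes per list were named, with the defining hormone genes and the 5 genes most like each receptor probe. Some other genes, among them PGR, NR3C1, PPARG, CYP17A1, VIM and EGR1, were named outside this rule. Receptors, lists (273 genes, 77 with a kept probe, 12 called) and rules were chosen with earlier results of these data known. The fit was tested on simulated data. The replicates are separate fetuses, and the number of arrays limits the precision.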

Additional observations from a re-analysis of the deposited data

Results flagged for a closer look

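In 4 of 70 groups of 4 arrays examined, 1 array stood apart from the other 3, with a gap to its neighbour that took more of the group's range than the 95% limit of Dixon's test allows; chance alone gives about 1 in 20. None of these was an ESR1 or ESR2 probe. LYZ on hypoxia replicate 1 read 7.25 on the log2 scale against 6.79 to 6.86 on the other hypoxia arrays (gap over range 0.867). FSHB on normoxia replicate 3 read 15.17 against 14.22 to 14.36 (0.847), which lies beside the call of FSHB among the estrogen-responsive genes. MYL11, a gene close to the dimmer ESR1 probe, read 13.09 on hypoxia replicate 1 against 13.47 to 13.54 (0.856). TNFRSF11B, close to the ESR2 probe, read 8.35 on normoxia replicate 2 against 9.00 to 9.07 (0.907).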

How the results depend on the processing

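The dimmer ESR1 probe was higher in hypoxia in 25 of 25 alternatives and called in 21. It was not called with gestational age (0.49) or array brightness (0.69) as a covariate, and the within-slide differences of 0.29 and 1.05 carry no test. Leaving out each array in turn gave 0.51 to 0.85, called each time. The brighter ESR1 probe was called in no alternative that used it alone. Of the 26 alternatives for it, the 1 that was called put the mean of both ESR1 probes in its place (0.43). Without each array the brighter probe gave 0.11 to 0.25. ESR2 was called in none of 25 and turned to 0.10 with 75th percentile scaling, which moved the median of all probes from -0.00 to 0.06, and to 0.02 with array brightness; without each array it was -0.07 to -0.01. The change of the gap between ESR1 probes was -0.53 to -0.45 with other signals, offsets or scaling, the deposited values or sex (exact p 0.1 to 0.229). It ran from -0.69 to -0.28 without each array and was -0.68 in males, -0.04 on slide 1 and -0.93 on slide 2, where no test could pass the threshold. Probes called higher numbered 373 with age and 266 with array brightness, and 647 to 1194 without each array, the fewest without hypoxia replicate 4; probes called lower numbered 445 with age, 327 with array brightness and 966 to 1655 without each array. List genes called numbered 4 with age, 7 with array brightness and 8 to 14 without each array. The causes were not tested.

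With the replicate number as a block, the dimmer ESR1 probe stood at 0.67 (limma adjusted p = 0.281), the brighter one at 0.18 and ESR2 at -0.04, the gap changed by -0.49 (exact test unable to pass), and no call on a receptor changed. Same-numbered arrays had correlations of deviations of -0.05, 0.02, 0.12 and -0.11, so no pairing by number was seen. Such values cannot show whether same-numbered fetuses were studied together. For the second ESR2 probe, fits without the filter (-0.11) and on the deposited values (-0.27) were chosen after seeing the data. Spots near the negative controls limit what can be seen of ESR2.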
